A study of Mus musculus with 19 samples.

Results

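The replication-dependent histone genes are the genes that encode the bulk histones H2A, H2B, H3 and H4 and most forms of the linker histone H1. They were taken as every gene whose name starts with Hist1, Hist2, Hist3 or Hist4 in the RNA-seq tables, which gave 68 of 24058 gene names. By type there were 6 H1, 18 H2A, 19 H2B, 12 H3 and 13 H4 genes. By cluster there were 54 Hist1 genes on chromosome 13, 10 Hist2 genes on chromosome 3, 3 Hist3 genes on chromosome 11 and 1 Hist4 gene on chromosome 6. RefSeq (GRCm38.p6) annotated 67 of them as protein coding and Hist3h2bb-ps as a transcribed pseudogene.

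In dividing cells these genes are switched on as DNA is copied. Most of their mRNAs carry no poly(A) tail and end in a stem-loop that is bound by SLBP, and the mRNA is degraded when replication stops. Neurons no longer divide. Some genes of these clusters are known to give polyadenylated transcripts in non-dividing cells, alongside replacement histones such as H3.3 and H2A.Z, which are made at all times from other genes.

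The study examined how activity shapes the expression and the chromatin of hippocampal neurons. The neurons came from the hippocampus of mouse embryos at embryonic day 17 and were kept in culture for 10 days. RNA-seq compared 3 libraries each of untreated cultures, of cultures given tetrodotoxin (TTX, which blocks voltage-gated sodium channels and so silences firing), and of cultures given bicuculline with 4-aminopyridine (Bic/4AP, a GABA-A receptor antagonist with a potassium channel blocker, which drives firing) for 3 h. All RNA and ChIP-seq samples came from ICR mice, and the bisulfite libraries, 1 per condition, from C57BL/6 mice. No label gives how long TTX was applied, or says whether libraries came from separate cultures or animals, so p-values measure only the spread between these libraries. The RNA was selected by its poly(A) tail, so a histone mRNA that ends in the stem-loop is largely lost, and a level below is that of RNA which passed the selection.

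The libraries differed in depth and in content beyond the histone genes. The RPKM values (reads per kilobase of gene, scaled by the library's total) gave back 5.63 to 9.97 M reads untreated, 9.68 to 12.6 M with TTX and 4.34 to 4.59 M with Bic/4AP. The histone genes took 1064 to 2092, 2673 to 4214 and 653 to 823 of these reads. A single histone gene had a median of 13 reads in an untreated library, 30 with TTX and 4 with Bic/4AP, so the Bic/4AP values of most single genes rest on few reads. RNAs that lack a poly(A) tail (14 of 17 listed were measured and 1 of these was at 0 throughout) summed to 899 to 1420 RPKM untreated, against 60.5 to 77.9 with TTX and 80.1 to 114 with Bic/4AP. The 12 choroid plexus markers, none at 0 throughout, summed to 474 to 710, 21.8 to 29.0 and 38.3 to 43.4 RPKM. The 9 neuron markers summed to 660 to 795, 626 to 699 and 1080 to 1097 RPKM. By the limma test described below, 8 of these rose and 1 fell with Bic/4AP against untreated, beside 29.6% and 42.5% of all genes. Of the 8 rises 1 was kept under both quantile and cyclic loess normalization, and 7 turned direction under at least 1. Untreated library 2 was the deepest of its group and had the lowest sums of the poly(A)-lacking RNAs and choroid plexus markers in it. The part of these differences in the results on untreated cultures was not tested.

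The promoters of genes with the main RNA changes are shown here, marked with letters of elements that histone promoters are known for. These elements are the CCAAT box bound by NF-Y, the TATA box, and the octamer bound by the POU factor Oct-1. Each sequence is the 120 bases before the RefSeq start site, 5′ to 3′ on the gene's strand, with 3 motifs in capitals wherever they occur on either strand. The CCAAT box is CCAAT, or ATTGG when it lies on the opposite strand. The TATA box is TATAAA, or TTTATA on the opposite strand. The octamer is ATTTGCAT, or ATGCAAAT on the opposite strand. Only these exact letters were marked, so related ones, such as tatata before Hist3h2a and Hist1h1c, stay in lower case. Lower case thus does not mean that an element is absent, and whether a marked stretch acts was not tested. In GRCm38.p6 they are chr11:58954565-58954684 on the plus strand for Hist3h2a, chr11:58948791-58948910 (plus) for Hist3h2ba, chr3:96269580-96269699 (plus) for Hist2h2bb, chr13:23738687-23738806 (plus) for Hist1h1c, chr3:96219765-96219884 (plus) for Hist2h2ab, chr3:96268534-96268653 (plus) for Hist2h3b and chr13:23530924-23531043 (plus) for Hist1h4h. The genes were chosen after their values were seen, the upper 4 for their level and their change with TTX and the lower 3 for their low level with Bic/4AP.
Hist3h2a: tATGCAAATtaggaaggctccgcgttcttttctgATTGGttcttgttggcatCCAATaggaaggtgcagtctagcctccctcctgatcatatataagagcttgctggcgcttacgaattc
Hist3h2ba: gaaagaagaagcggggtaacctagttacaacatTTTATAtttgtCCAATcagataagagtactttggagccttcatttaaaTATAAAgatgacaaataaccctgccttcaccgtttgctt
Hist2h2bb: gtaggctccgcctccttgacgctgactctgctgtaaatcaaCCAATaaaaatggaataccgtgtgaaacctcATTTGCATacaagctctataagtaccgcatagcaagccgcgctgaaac
Hist1h1c: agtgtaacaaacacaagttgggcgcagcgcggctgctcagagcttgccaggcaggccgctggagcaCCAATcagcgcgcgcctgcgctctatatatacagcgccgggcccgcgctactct
Hist2h2ab: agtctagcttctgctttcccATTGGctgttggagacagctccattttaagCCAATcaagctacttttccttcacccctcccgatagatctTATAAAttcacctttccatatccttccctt
Hist2h3b: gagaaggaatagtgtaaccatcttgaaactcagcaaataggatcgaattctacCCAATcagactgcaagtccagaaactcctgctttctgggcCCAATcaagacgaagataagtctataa
Hist1h4h: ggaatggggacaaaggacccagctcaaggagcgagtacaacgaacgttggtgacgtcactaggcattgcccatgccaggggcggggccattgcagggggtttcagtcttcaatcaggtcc

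These letters were more frequent before histone genes than before other genes. CCAAT lay within 250 bases before the start in 82.3% of the 62 histone promoters at hand, against 34.5% of all 27025 promoters. TATAAA did so in 46.8% against 13%, and ATTTGCAT in 21% against 1.61%. The types differed: CCAAT was found before 6 of 6 H1, 18 of 18 H2A, 16 of 16 H2B and 8 of 10 H3 genes but before 3 of 12 H4 genes. The octamer was found before 7 of 18 H2A and 6 of 16 H2B genes and before none of the H1, H3 and H4 genes. H2A and H2B genes often lie head to head, with 10 such pairs whose starts were 164 to 281 bases apart, so a pair shares much of 1 window and these counts are not independent.

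As a whole the histone genes stood highest with TTX and lowest with Bic/4AP. Their RPKM summed to 298, 318 and 307 in the untreated libraries, to 534, 460 and 443 with TTX, and to 213, 276 and 229 with Bic/4AP. The 3 groups did not overlap. The mean was 1.56 times the untreated mean with TTX and 0.777 times with Bic/4AP. In these bulk cultures, fewer cells of a type and less RNA per cell cannot be told apart. The sums of the poly(A)-lacking RNAs and of the choroid plexus markers were highest in the untreated libraries, and their part in the histone levels was not tested.

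The 5 types did not move alike (plot of summed levels by type). H1 summed to 16.21, 20.4 and 19.5 RPKM untreated, 42.5, 39.1 and 40.7 with TTX and 16.17, 15.4 and 15.8 with Bic/4AP. H2A, which pairs with H2B in the outer dimers of the nucleosome, summed to 81.2, 87.3 and 82.0, to 169, 137 and 141, and to 52.0, 57.0 and 42.0 RPKM in the same order. H2B summed to 122, 145 and 114, to 239, 214 and 205, and to 116, 165 and 135 RPKM. So H1, H2A and H2B were wholly above the untreated libraries with TTX, and with Bic/4AP H2A was wholly below them, H1 lay below them by a narrow margin, and H2B overlapped them. H3, which forms the core tetramer with H4, summed to 24.8, 21.7 and 32.9 untreated, 25.4, 21.4 and 20.7 with TTX and 10.0, 11.2 and 10.4 RPKM with Bic/4AP. H4 summed to 53.6, 44.0 and 58.2, to 57.4, 48.7 and 35.8, and to 18.3, 27.3 and 25.9 RPKM. For H3 and H4 the TTX and untreated libraries overlapped, and all Bic/4AP libraries lay below both.

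**Figure D1:**
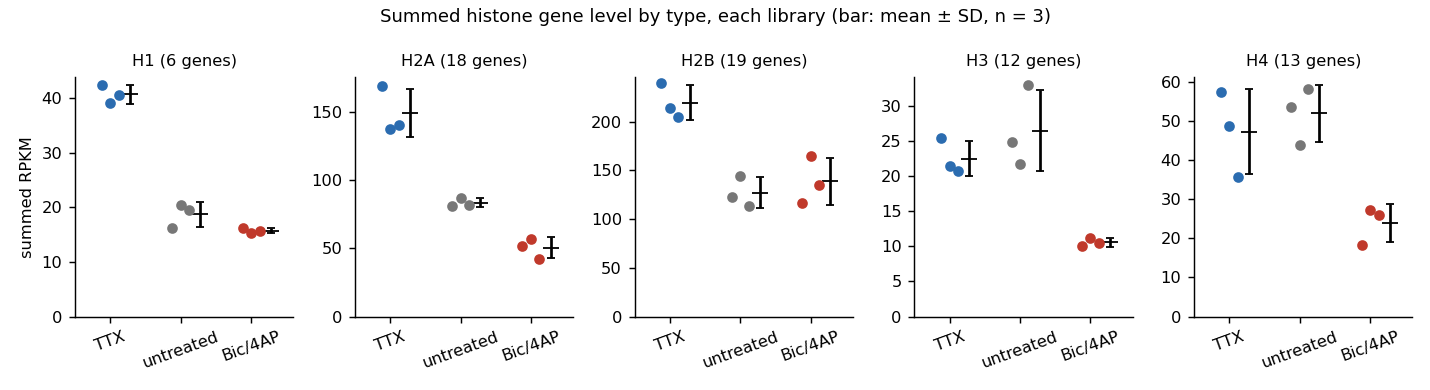
Summed RPKM of the histone genes of each type (y axis, linear, from 0) in each of the 9 libraries; points are libraries and bars the mean ± SD of 3. H1, H2A and H2B are highest with TTX, while H3 and H4 show overlapping TTX and untreated points and lower Bic/4AP points.

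Every later test used limma on log2(RPKM + 1) across the 14801 genes that reached 1 RPKM in at least 3 libraries, with p-values adjusted over all of them (Benjamini-Hochberg, threshold 0.05). Of the histone genes 61 were tested and none of these passed the level filter through 1 group alone. The 7 not tested were Hist1h1a, Hist1h1b, Hist1h1t, Hist1h2aa, Hist1h2br, Hist1h3f and Hist4h4. Their means over the 9 libraries ran up to 0.659 RPKM (Hist1h2aa), and Hist1h2br was listed at 0 in every library. The median gene tested changed by -0.12 with Bic/4AP and by 0.13 with TTX on the log2 scale against untreated, and by -0.33 with Bic/4AP against TTX. Quantile normalization put these medians at 0.06, 0.05 and -0.03, so log2 changes of genes are given relative to the median gene, while the tests are of the unshifted change.

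TTX against untreated asked what silencing does. Of 61 histone genes 20 rose (32.8%), against 40.6% of all genes tested, and 4 fell (6.56%), against 23.5% of all genes. Among the 4041 other genes at a mean of 2 to 10 RPKM, where 47 of the 61 lie, 38.3% rose and 24.3% fell, and among the 227 of these under 1000 bases 48.9% rose and 17.6% fell. These bands were set after the values were seen. The median histone gene stood 0.27 above the median gene. Neither share was above any of these, and the counts varied by type. H1 had 2 of 3 genes that rose, H2A 10 of 17 and H2B 8 of 18, and none of these fell by limma, also at an unadjusted p under 0.05. H3 had 0 of 11 and H4 0 of 12 genes that rose, also at an unadjusted p under 0.05, and 3 H3 genes (Hist1h3b, Hist1h3g and Hist1h3h) and 1 H4 gene (Hist1h4k) fell. Of all 14801 genes 5521 rose and 4724 fell under quantile normalization, and 4553 rose and 5241 fell under cyclic loess. Under both scalings too, no H3 or H4 gene rose, H1 kept its 2 and H2A had 9 and 8 rises. H2B had 8 and 4 rises, with 1 H2B gene that fell under each (Hist1h2bc). The rises numbered 12 without TTX library 1, 6 of them H2A and 4 H2B, and H2B had 5 without untreated library 1 and 5 without untreated library 3. The falls of H3 and H4 genes depended on the libraries used, with 0 in all without untreated library 3 or without TTX library 2, and 1 without untreated library 1 or without TTX library 3. With 1 library left out 1 H4 gene rose in each of 2 cases, Hist2h4 without untreated library 3 and Hist1h4i without TTX library 3.

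The 3 Hist3 genes were the most abundant H2A and H2B genes with TTX. Hist3h2a, an H2A gene that RefSeq names H2aw (chr11:58954685-58955192), stood at 21.3, 27.2 and 20.2 RPKM untreated, 50.4, 47.8 and 51.9 with TTX and 27.8, 27.4 and 20.9 with Bic/4AP. It was 0.97 above the median gene with TTX against untreated (SE 0.12, adjusted p = 1.1e-05, limma). All 3 TTX libraries were far above the other 6, which overlapped each other. Hist3h2ba, an H2B gene (H2bu2, chr11:58948911-58949372), stood at 19.6, 29.1 and 15.5 RPKM untreated, 55.0, 49.1 and 56.1 with TTX and 29.2, 38.7 and 28.9 with Bic/4AP. Its TTX change was 1.19 relative to the median gene (SE 0.18, adjusted p = 5.8e-05, limma). The pseudogene Hist3h2bb-ps (chr11:58954048-58954512) stood at 9.92, 12.9 and 9.74, at 25.0, 25.8 and 26.9 and at 14.7, 20.1 and 16.4 RPKM, and rose by 1.06 relative to the median gene with TTX (SE 0.12, adjusted p = 7e-06, limma). For this pseudogene all 3 groups were apart.

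Outside Hist3, Hist2h2bb and Hist1h1c showed the largest rises with TTX. Hist2h2bb, an H2B gene (chr3:96269700-96270192), was at 6.48, 6.10 and 4.24 RPKM untreated and at 16.8, 17.8 and 15.9 with TTX, a change of 1.32 relative to the median gene (SE 0.17, adjusted p = 2.1e-05, limma). With Bic/4AP it was at 4.93, 7.95 and 7.01 RPKM, overlapping the untreated libraries. Hist1h1c, which encodes the linker histone H1.2 and is known to be among the H1 genes of non-dividing cells (chr13:23738807-23739531), was at 9.79, 12.3 and 9.85 RPKM untreated, 27.7, 26.3 and 25.4 with TTX and 8.23, 7.81 and 9.85 with Bic/4AP. Its TTX change was 1.11 relative to the median gene (SE 0.11, adjusted p = 2.5e-06, limma). Hist1h1e, the gene of H1.4, was at 2.95, 4.49 and 4.46 RPKM untreated and at 9.20, 7.87 and 9.12 with TTX, and rose by 0.85 relative to the median gene (SE 0.17, adjusted p = 0.00038, limma). These changes kept their direction and their call under both other scalings.

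**Figure D2:**
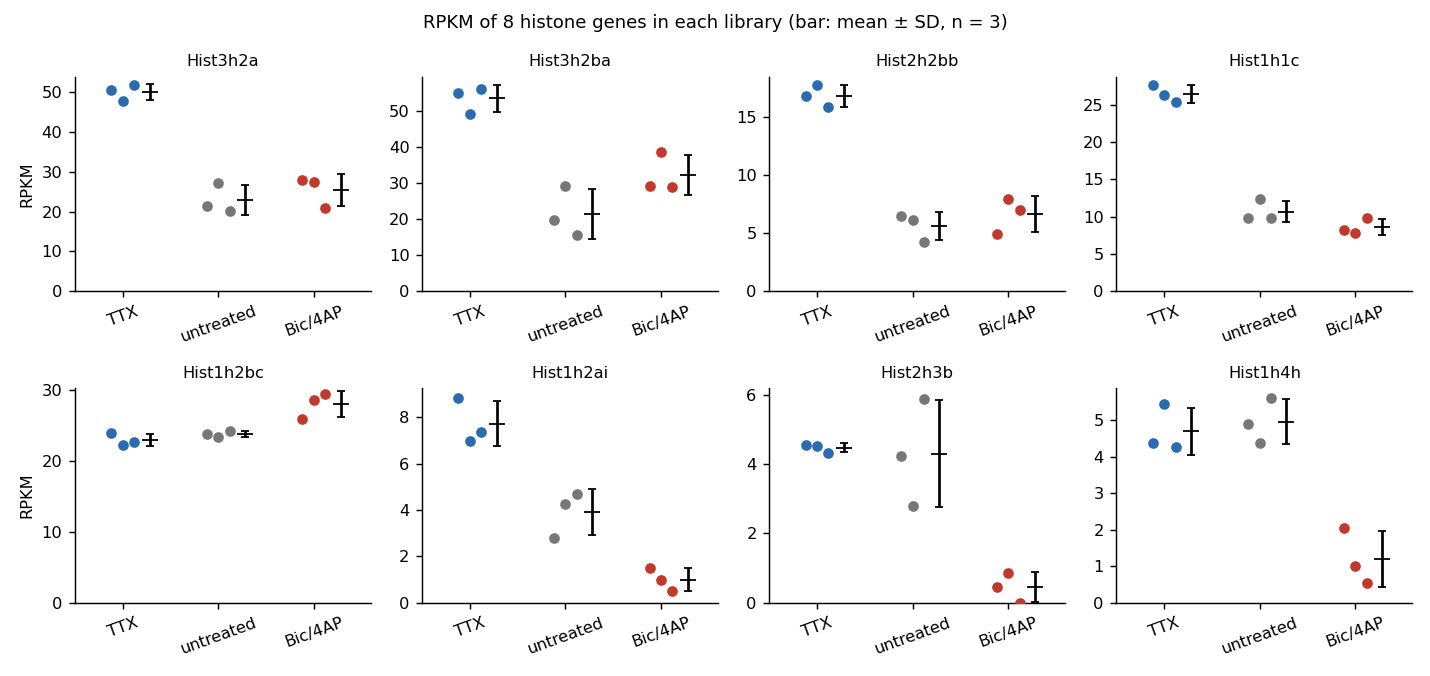
RPKM (y axis, linear, from 0, a scale for each gene) of 8 histone genes in each of the 9 libraries; points are libraries and bars the mean ± SD of 3. Hist3h2a, Hist3h2ba, Hist2h2bb and Hist1h1c are highest with TTX, Hist1h2bc differs little, and Hist1h2ai, Hist2h3b and Hist1h4h are lowest with Bic/4AP.

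Bic/4AP against untreated asked what 3 h of driven firing does. Of 61 histone genes 33 fell (54.1%), against 42.5% of all genes tested, and 3 rose (4.92%), against 29.6%. Among the other genes at 2 to 10 RPKM 55.9% fell and 13.4% rose, and among those also under 1000 bases 36.6% fell and 26.4% rose. On the deposited scale the share of histone genes that fell is thus near that of other genes of their level and above that of short genes of their level. By type, H2A had 15 of 17 genes that fell, H4 9 of 12, H3 6 of 11, H1 1 of 3 and H2B 2 of 18. The 3 genes that rose were all H2B, and no H1, H2A, H3 or H4 gene rose by limma, also at an unadjusted p under 0.05. Without untreated library 2, or without Bic/4AP library 3, 1 H2A gene (Hist3h2a) rose as well. The falls of H2B numbered 1 without untreated library 1 or Bic/4AP library 1 and 3 without Bic/4AP library 2 or 3. The fall of H1 (Hist1h1c) was lost without untreated library 2, TTX library 2, Bic/4AP library 1 or Bic/4AP library 2, and when only the 6 libraries compared were fitted.

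These counts depended on the scaling. Under quantile normalization 9 histone genes fell and 11 rose, and under cyclic loess 14 fell and 8 rose. H2B supplied 8 and 6 of those rises, H2A none, and the median H2A gene was at -0.28 and -0.36 while the median H2B gene was at 0.44 and 0.31, as unshifted log2 changes. The 9 genes that fell under all 3 scalings were 4 H2A (Hist1h2ab, Hist1h2ad, Hist1h2ai and Hist2h2ab), 3 H3 (Hist1h3h, Hist2h3b and Hist2h3c1) and 2 H4 (Hist1h4h and Hist1h4k). The 3 genes that rose did so under all 3.

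Among the genes that fell, Hist2h3b, an H3 gene (chr3:96268654-96269155), changed most. It was at 4.24, 2.80 and 5.90 RPKM untreated, 4.57, 4.54 and 4.32 with TTX and 0.440, 0.868 and 0 with Bic/4AP, a change of -1.77 relative to the median gene against untreated (SE 0.25, adjusted p = 2.5e-05, limma). The Bic/4AP values are 1, 2 and 0 reads, and the 0 allows up to 1.38 RPKM (3 reads). Even that limit lies below the lowest untreated value. Hist2h2ab, an H2A gene (chr3:96219885-96220354), was at 3.65, 3.20 and 2.78 RPKM untreated, 3.61, 3.27 and 4.01 with TTX and 0.505, 0 and 1.05 with Bic/4AP, a change of -1.40 (SE 0.23, adjusted p = 6.9e-05, limma). Its 0 allows up to 1.49 RPKM. Hist1h4h, an H4 gene (chr13:23531044-23531478), was at 4.90, 4.38 and 5.61 RPKM untreated, 4.36, 5.43 and 4.28 with TTX and 2.03, 1.00 and 0.530 with Bic/4AP, a change of -1.38 (SE 0.22, adjusted p = 6.9e-05, limma). In these 3 genes the TTX and untreated libraries overlapped and every Bic/4AP library was below both.

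Hist1h2ai, an H2A gene of the Hist1 cluster (chr13:21716412-21716859), differed in all 3 conditions. It was at 2.77, 4.25 and 4.67 RPKM untreated, 8.83, 6.97 and 7.38 with TTX and 1.48, 0.973 and 0.514 with Bic/4AP, with no overlap between groups. It changed by 0.72 with TTX (SE 0.21, adjusted p = 0.0038, limma) and by -1.18 with Bic/4AP (SE 0.21, adjusted p = 0.00013, limma) relative to the median gene, both against untreated. In group means, 16 of 18 H2A genes stood in that order, TTX above untreated above Bic/4AP. Of the 18 H2B genes above 0, 10 did so and 6 had TTX above Bic/4AP above untreated. The commonest order of H3 (7 of 12) and H4 genes (7 of 13) was untreated above TTX above Bic/4AP. The orders were not counted over all genes, and the median gene tested was also higher with TTX and lower with Bic/4AP than untreated. So these counts are not read as a trait of the histone genes.

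The genes that rose with Bic/4AP were Hist3h2ba, Hist3h2bb-ps and Hist1h2bc. Hist3h2ba rose by 0.73 (SE 0.18, adjusted p = 0.0087, limma) and Hist3h2bb-ps by 0.73 (SE 0.12, adjusted p = 0.0006, limma) relative to the median gene. Untreated library 2, at 29.1 RPKM of Hist3h2ba, overlapped the Bic/4AP libraries. Hist1h2bc, an H2B gene whose RefSeq span of 8282 bases (chr13:23684199-23692480) is longer than that of a simple histone gene, was at 23.8, 23.4 and 24.3 RPKM untreated, 24.0, 22.3 and 22.7 with TTX and 26.0, 28.7 and 29.5 with Bic/4AP. It rose by 0.35 relative to the median gene (SE 0.06, adjusted p = 0.0053, limma), and its Bic/4AP libraries were all above the other 6. Hist1h1c passed as lower on the deposited scale (unshifted log2 change -0.27) but was higher under quantile (0.22) and cyclic loess normalization (0.10), so no direction is given for it with Bic/4AP.

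**Figure D3:**
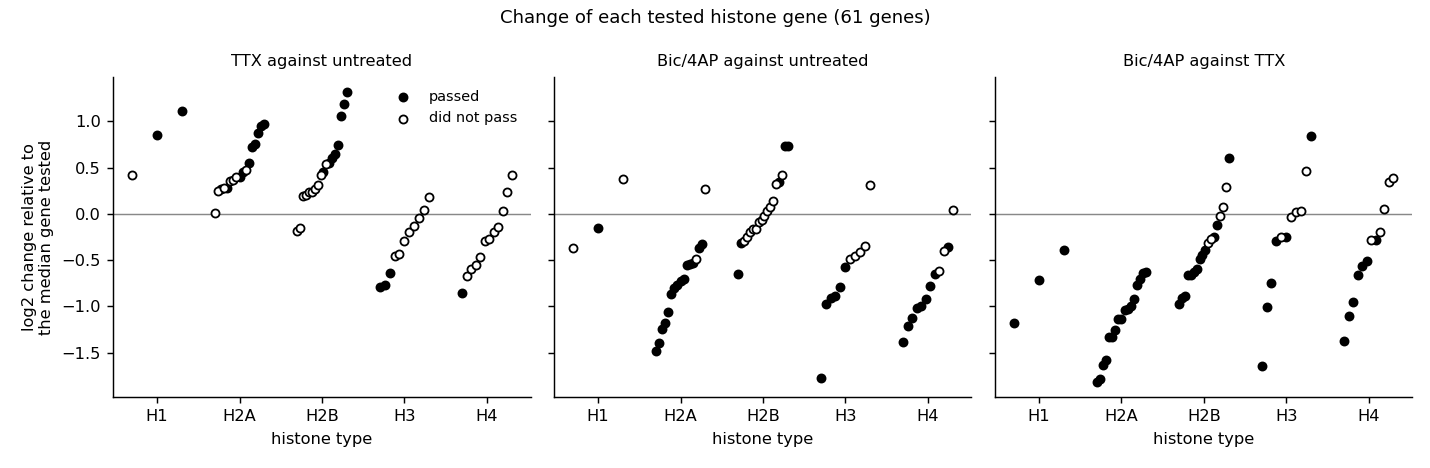
Log2 change, on log2(RPKM + 1) relative to the median gene tested (y axis), of each of the 61 tested histone genes by type in the 3 comparisons; each point is 1 gene, filled where it passed at an adjusted p of 0.05. With TTX the H1, H2A and most H2B points lie above 0 and most H3 and H4 points below it, and with Bic/4AP against TTX every H2A point lies below 0.

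Bic/4AP against TTX set the driven against the silenced cultures, and so did not compare the untreated libraries that were high in choroid plexus markers. Of 61 histone genes 44 fell (72.1%), against 53.1% of all genes tested and 63.8% of genes at 2 to 10 RPKM, and 2 rose (3.28%), against 23.7% and 10.3%. Among the short genes at 2 to 10 RPKM 52.4% fell and 13.7% rose. H2A had 17 of 17 genes that fell, and 16 of 17 under each other scaling. Of all 14801 genes 5351 fell under quantile and 5290 under cyclic loess normalization. H1 had 3 of 3, H2B 12 of 18, H3 5 of 11 and H4 7 of 12, and each of these counts was lower under the other scalings, at 1, 3, 3 and 2. The 25 genes that fell under all 3 scalings comprised 16 H2A, 3 H2B, 3 H3, 2 H4 and 1 H1 gene. Hist1h2ai had the lowest change relative to the median gene, -1.82 (SE 0.21, adjusted p = 1.7e-06, limma), followed by Hist1h2ab at -1.79 (SE 0.31, adjusted p = 4.8e-05, limma). Hist1h1c fell by 1.18 relative to the median gene (SE 0.11, adjusted p = 1.2e-07, limma) and Hist2h2bb by 0.91 (SE 0.17, adjusted p = 2.7e-05, limma). The genes that rose were Hist1h2bc, by 0.61 (SE 0.06, adjusted p = 0.0012, limma), and Hist1h3i, an H3 gene at 1.97, 1.22 and 0.856 RPKM with TTX and 2.74, 2.25 and 1.91 with Bic/4AP, by 0.84 (SE 0.19, adjusted p = 0.029, limma). The groups of Hist1h3i overlapped at their edges, and its call was lost without TTX library 2 or 3 or Bic/4AP library 1 or 2. This comparison shares its libraries with the other 2, so the 3 sets of calls are not independent.

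Genes whose groups did not overlap were counted as well, on the deposited scale only and without a test. The shares of all genes here are over the 21541 genes above 0, including those below the level filter. No such share was counted for genes of the same level. The falls with Bic/4AP depended on the scaling, and these counts were not made under the other scalings. With TTX, 14 of 18 H2A genes and 10 of 18 H2B genes above 0 lay wholly above the untreated libraries, against 32.3% of all genes, and 0 of 12 H3 and 0 of 13 H4 genes did so. With Bic/4AP, 13 of 18 H2A and 11 of 13 H4 genes lay wholly below the untreated libraries, against 32.7% of all genes, while 2 of 18 H2B genes did.

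Ratios between types within a library do not change when a library is multiplied by a constant, and they set H2A apart from H2B (plot of ratios within libraries). Over the Hist1 genes without Hist1h2bc, summed H2A was 0.634, 0.590 and 0.725 times summed H2B untreated, 0.775, 0.677 and 0.796 times with TTX and 0.439, 0.316 and 0.259 times with Bic/4AP. Every Bic/4AP library was below the other 6, while TTX and untreated overlapped. Leaving Hist1h2bc out was decided after its level was seen, and over all histone genes the ratio was 0.604 to 0.720, 0.642 to 0.707 and 0.312 to 0.448. Other H2B genes with long RefSeq spans stayed in the sum: Hist1h2be (37455 bases), Hist1h2bp (14079 bases) and Hist1h2bq (3788 bases). Hist1h2bp and Hist1h2bq are also in the head-to-head pairs. The same held inside head-to-head pairs: the ratio of the H2A to the H2B gene, from group means, was lower with Bic/4AP than untreated in 7 of the 9 pairs with both genes above 0. In the pair Hist1h2ai and Hist1h2bl, whose starts are 229 bases apart, the H2A mean went from 3.90 to 0.989 RPKM and the H2B mean from 5.45 to 3.80 RPKM.

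H3 and H4 were lower beside H2A with TTX. Summed H3 of the Hist1 cluster was 0.392, 0.380 and 0.555 times summed H2A untreated, 0.173, 0.176 and 0.171 times with TTX and 0.479, 0.407 and 0.768 times with Bic/4AP. Summed H4 was 1.38, 1.04 and 1.32, 0.612, 0.698 and 0.495, and 1.13, 1.25 and 1.97 times summed H2A. In both ratios the 3 TTX libraries were below all 6 others. Beside H2B, without Hist1h2bc, the ratio of H4 was highest in the untreated libraries. Summed H4 was 0.876, 0.613 and 0.958 times summed H2B untreated, 0.474, 0.473 and 0.394 times with TTX and 0.496, 0.396 and 0.509 times with Bic/4AP. In that ratio TTX and Bic/4AP overlapped and every untreated library was above both. The RNAs that lack a poly(A) tail were also highest in the untreated libraries, at 899 to 1420 RPKM. Untreated library 2 had the lowest sum of these RNAs and the lowest H4 to H2B ratio of its group. The part of these RNAs in the ratio was not tested. Summed H4 was 2.38 to 3.52 times summed H3 untreated, 2.89 to 3.96 times with TTX and 2.36 to 3.08 times with Bic/4AP, so that the core pair H3 and H4 kept overlapping ratios in all groups.

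**Figure D4:**
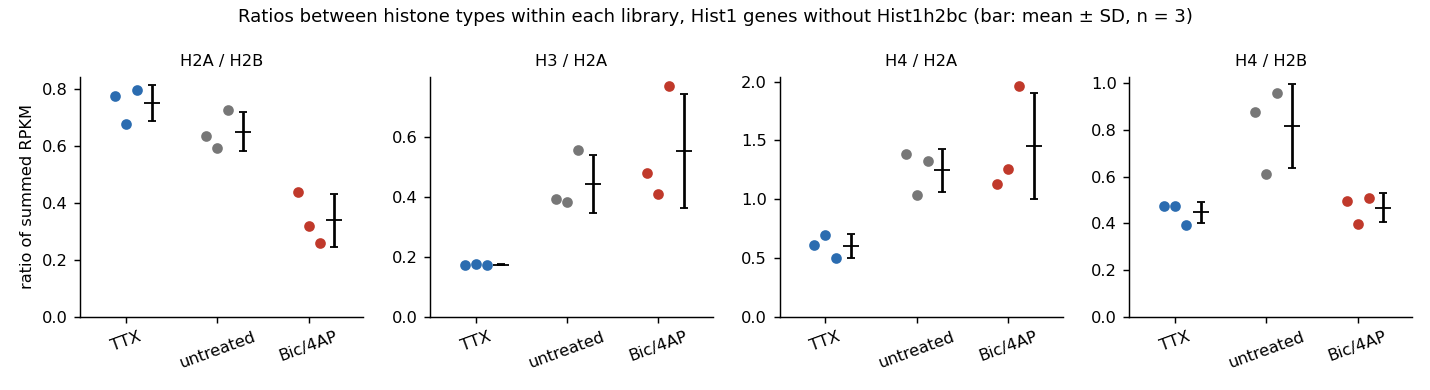
Ratio of the summed RPKM of histone types (y axis, linear, from 0) within each of the 9 libraries, over Hist1 genes, with Hist1h2bc left out of H2B; points are libraries and bars the mean ± SD of 3. The H2A to H2B ratio is lowest in the Bic/4AP libraries, and the H3 to H2A and H4 to H2A ratios are lowest in the TTX libraries. The H4 to H2B ratio is highest in the untreated libraries.

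The clusters differed as well. The 3 Hist3 genes summed to 50.8, 69.3 and 45.4 RPKM untreated, 130, 123 and 135 with TTX and 71.8, 86.3 and 66.2 with Bic/4AP. Their share of the summed histone RPKM was 14.8 to 21.8% untreated, 24.4 to 30.5% with TTX and 28.9 to 33.7% with Bic/4AP. The 10 Hist2 genes summed to 44.3, 40.2 and 43.1, to 69.5, 64.3 and 62.3, and to 19.6, 25.6 and 19.4 RPKM, with all 3 groups apart. With Bic/4AP against untreated 8 of 10 Hist2 genes fell, where 42.5% of all genes tested did, and none rose (limma, also none at an unadjusted p under 0.05). Of these 8, Hist2h2ab, Hist2h3b and Hist2h3c1 fell under all 3 scalings. The 2 that did not fall were its H2B genes, Hist2h2bb and Hist2h2be. The 54 Hist1 genes summed to 203, 207 and 218, to 334, 272 and 245, and to 121, 163 and 143 RPKM, again with all 3 groups apart. Hist1 genes fall into 4 groups along chromosome 13 when split at gaps over 100 kb, with 18, 5, 29 and 2 genes. With TTX, 7 of 16 tested genes rose in the group of 18 and 3 of 5 in the group of 5, and 3 of 26 in the group of 29, where 40.6% of all genes tested rose. The difference between these groups was not tested. Hist4h4 was at 0 in 2 untreated and 2 Bic/4AP libraries and reached at most 1.54 RPKM, in TTX library 2.

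Some rows of near-identical genes are uncertain. The length that the deposited values imply was 2 times the RefSeq span for Hist1h2ao, Hist2h2aa2 and Hist2h3c1, and between 1.90 and 2.44 times for Hist1h2ap, Hist1h4n, Hist2h2aa1 and Hist2h3c2, so the levels of these 7 rows per length cannot be set beside those of other genes. Hist1h2bq stood at 1.92 to 3.88 RPKM while Hist1h2br, which lies next to Hist1h2ap, was listed at 0 throughout. Nothing at hand says how reads that fit several copies were counted.

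Marks at the start sites were read where RefSeq gave a promoter, for 62 of the 68 genes. H3K27ac, a mark of active promoters and enhancers, had a deposited peak within 1000 bases of the start at 8 and 20 of 62 histone genes in the 2 untreated lists (12.9% and 32.3%), against 6.89% and 23% of all genes. In the 2 Bic/4AP lists it was 12 and 25 of 62 (19.4% and 40.3%), against 15.1% and 29%. The lists of each condition differ widely in length, with 4846 and 49701 peaks untreated and 7721 and 55035 with Bic/4AP, and no rise was read from these counts. Hist3h2ba had a peak in all 4 lists, with the authors' scores of 111 and 2668 untreated and 102 and 2406 with Bic/4AP. Hist3h2a had one in the longer list of each condition. At Hist2h2ab and its neighbour Hist2h2ac a peak of the same score lay in both windows in each of the 4 lists. The same was seen for Hist1h2ae and Hist1h2bg, and for Hist2h2bb and Hist2h3b in the lists where they had a peak. The same peak can thus be counted at neighbouring genes. The counts are not independent, and no excess over all genes was read from them. No histone gene had an H3K4me1 peak there, a mark of enhancers, and 1.05% and 1.11% of all genes did.

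CpG methylation at the histone starts was low in each bisulfite library. The median over genes with at least 5 listed CpGs from 1000 bases before to 500 after the start was a fraction of 0.0123 in the untreated library (56 genes), 0.0106 under TTX (57 genes) and 0.0120 under Bic/4AP (56 genes), against 0.240, 0.247 and 0.245 over all genes. With 1 library per condition and no coverage in the files the depth is unknown and no test was made. The exceptions were 3 genes known from the male germ line: Hist1h1t, the gene of the testis H1, at 0.673, 0.686 and 0.681, Hist1h2aa at 0.908, 0.924 and 0.930, and Hist1h2ba at 0.912, 0.917 and 0.933, in the order untreated, TTX and Bic/4AP. Hist1h1t and Hist1h2aa were too low to be tested. Hist1h2ba was not: it was listed at 3.29, 4.64 and 5.24 RPKM untreated, 8.60, 8.40 and 6.70 with TTX and 3.58, 6.05 and 2.13 with Bic/4AP, and rose with TTX by 0.60 relative to the median gene (SE 0.25, adjusted p = 0.024, limma). That call was lost under cyclic loess normalization (adjusted p = 0.108) and without untreated library 1, TTX library 1 or TTX library 2. Whether its reads came from other H2B genes was not tested. Among the genes that fell with Bic/4AP, Hist2h3b stood at 0.122, 0.0759 and 0.145, Hist2h2ab at 0.0144, 0.0163 and 0.0152 and Hist1h4h at 0.00177, 0.00250 and 0.00542 in the same order.

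The summed RPKM of the replacement histones was highest with Bic/4AP, where that of the replication-dependent genes was lowest (plot of summed levels of gene lists). The 11 replacement histone genes summed to 255 to 261 RPKM untreated, 293 to 314 with TTX and 383 to 403 with Bic/4AP. Their sum, like that of the replication-dependent genes, was wholly above the untreated libraries with TTX. With TTX against untreated 6 of 11 rose and 2 fell, beside shares of 40.6% and 23.5% over all genes. Driven firing, against untreated, had 7 that rose and 1 (H2afj) that fell, beside 29.6% and 42.5% over all genes. Of the 7 rises 6 were kept under both other scalings, and H2afj was higher, without passing, under both. The sum hides differences between these genes, as with Bic/4AP against TTX 4 of 11 rose and 6 fell. Over all genes 23.7% rose and 53.1% fell in that comparison. All 4 rises and 3 of the 6 falls were kept under both other scalings, and the other 3 falls turned under at least 1. H3f3a, a gene of H3.3, was at 48.2, 44.0 and 45.3 RPKM untreated, 37.3, 36.7 and 38.0 with TTX and 86.7, 93.5 and 89.1 with Bic/4AP. It rose by 1.08 with Bic/4AP (SE 0.05, adjusted p = 2.5e-08, limma) and fell by 0.42 with TTX (SE 0.05, adjusted p = 0.00054, limma), both relative to the median gene and against untreated. H2afz, the gene of H2A.Z, was at 43.5, 37.6 and 38.8, at 39.9, 35.4 and 40.5, and at 76.3, 79.1 and 71.8 RPKM, and rose by 1.03 with Bic/4AP (SE 0.07, adjusted p = 3.1e-07, limma). H3f3b, the other H3.3 gene, rose by 0.72 (SE 0.08, adjusted p = 3.2e-05, limma), a call that was lost under cyclic loess (adjusted p = 0.076). H1f0, the replacement H1 of differentiated cells, was at 20.5, 22.1 and 20.02 RPKM untreated, 32.8, 33.0 and 35.2 with TTX and 24.3, 24.8 and 24.3 with Bic/4AP. It rose by 0.54 with TTX (SE 0.06, adjusted p = 2.4e-06, limma), the direction of Hist1h1c and Hist1h1e.

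Genes that make or degrade histone mRNA changed in both directions with Bic/4AP. All shares here are read beside the 29.6% of all genes tested that rose and the 42.5% that fell. Of 13 tested genes of 3′-end processing 3 rose and 5 fell, and 1 of these rises and all 5 falls were kept under both other scalings. Slbp, whose protein binds the stem-loop, was at 22.8, 19.2 and 15.4 RPKM untreated, 22.1, 21.4 and 21.7 with TTX and 26.1, 25.2 and 27.4 with Bic/4AP, and rose by 0.57 relative to the median gene (SE 0.11, adjusted p = 0.0022, limma). Srrt, a partner of the cap-binding complex, was at 44.9, 37.1 and 49.4, at 26.4, 25.3 and 26.3, and at 8.55, 7.71 and 8.002 RPKM, and fell by 2.17 (SE 0.09, adjusted p = 3.9e-09, limma). Sympk, the scaffold of the cleavage complex, fell by 0.75 (SE 0.06, adjusted p = 1.6e-07, limma). Of 10 genes of histone gene transcription 2 rose and 6 fell, with 1 and 3 kept. Hinfp, the H4 promoter factor, was at 16.4, 14.3 and 15.8, at 17.4, 16.9 and 15.9, and at 5.26, 5.29 and 6.58 RPKM, and fell by 1.18 (SE 0.10, adjusted p = 2.7e-07, limma). Npat, the coactivator of histone genes, passed as lower on the deposited scale and was higher, without passing, under both others. Of 9 decay genes 1 rose and 6 fell, with 1 and 4 kept. Among those kept was Upf1, the helicase needed for histone mRNA decay, which fell by 1.42 (SE 0.09, adjusted p = 3.6e-08, limma).

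Genes of DNA replication were read beside the histone genes. The 20 S-phase genes summed to 89.4 to 110 RPKM untreated, 133 to 142 with TTX and 117 to 144 with Bic/4AP, and the 10 mitosis genes to 10.4 to 12.4, 11.4 to 16.8 and 11.3 to 12.5 RPKM. With TTX against untreated 9 of 17 tested S-phase genes rose and none fell, beside 40.6% and 23.5% over all genes, and 7 of the 9 rises were kept under both other scalings. For Bic/4AP against untreated the counts were 3 and 7, beside 29.6% and 42.5% over all genes. The 3 rises were kept, but of the 7 falls the fall of Mcm7 alone was, and the other 6 were higher under at least 1 other scaling. Pcna, the replication clamp, was at 27.6, 29.8 and 26.96 RPKM untreated, 31.6, 30.7 and 34.0 with TTX and 53.8, 54.0 and 65.1 with Bic/4AP, and rose with Bic/4AP by 1.13 relative to the median gene (SE 0.08, adjusted p = 2.6e-07, limma). Mcm7, a subunit of the replicative helicase, was at 5.26, 5.40 and 5.24, at 9.04, 8.06 and 7.12, and at 2.12, 2.0004 and 1.44 RPKM, and fell with Bic/4AP by 1.03 (SE 0.14, adjusted p = 1.7e-05, limma).

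Markers of other cells in such cultures also moved. In the order untreated, TTX and Bic/4AP, the 8 markers of the oligodendrocyte lineage summed to 23.0 to 29.7, 43.0 to 52.1 and 22.2 to 28.7 RPKM. The 8 vascular and fibroblast markers summed to 22.4 to 28.2, 37.4 to 45.8 and 28.1 to 36.0 RPKM, and the 8 microglia markers to 6.79 to 7.60, 8.04 to 10.9 and 5.94 to 10.2 RPKM. The 9 astrocyte markers summed to 135 to 145, 172 to 194 and 202 to 233 RPKM and the 6 progenitor markers to 77.0 to 85.1, 93.9 to 97.8 and 116 to 134 RPKM. No marker of these lists was at 0 in all libraries. The first 3 of these lists were highest with TTX by their highest library, and the last 2 were highest with Bic/4AP. For microglia the TTX and Bic/4AP ranges overlapped. With TTX against untreated 4 of 6 tested oligodendrocyte lineage markers rose and 2 fell (limma). The counts were 4 and 0 of 6 for vascular and fibroblast markers and 2 and 0 of 4 for microglia markers. Over all genes 40.6% rose and 23.5% fell. The part of these markers in the histone levels was not tested.

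**Figure D5:**
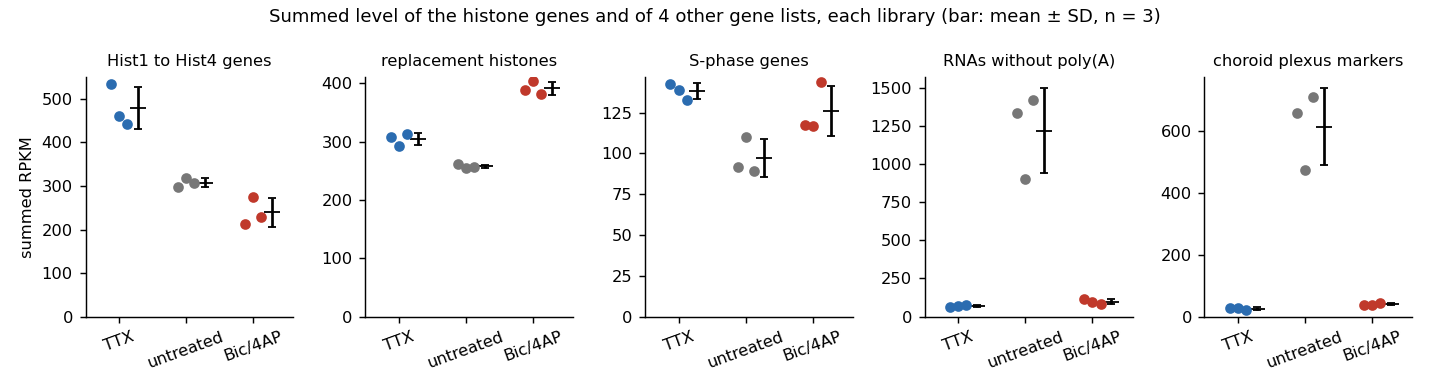
Summed RPKM (y axis, linear, from 0, a scale for each panel) of the 68 histone genes and of 4 other gene lists in each of the 9 libraries; points are libraries and bars the mean ± SD of 3. The histone genes are highest with TTX, the replacement histones are highest with Bic/4AP, and the RNAs without poly(A) and the choroid plexus markers are highest in the untreated libraries.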

How the data were processed

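Per the labels' protocols, poly(A) RNA went into a directional library kit. The authors deposited RPKM per gene and library. The mm10 build, MACS 1.4.1, Bowtie2 2.2.4, TopHat and SAMtools 0.1.19 appear in the submitters' processing notes. No source used here says whether counting used strand. The deposited methylation values are a fraction per CpG without coverage, and the deposited peak lists give a score per peak, each list from 1 sample. The input sample is not used here. For 19433 of 19588 genes above 0 in 3 or more libraries, RPKM values were whole multiples of 1 read within 0.1 read, which gave the depths. All 68 names matched RefSeq through its synonyms.

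limma (version 3.58.1, under R 4.3.3) tested log2(RPKM + 1) with its variance trend on mean level, all 9 libraries being in 1 fit. The scale understates changes of low genes. On data simulated for Bic/4AP against untreated over 14801 genes, 89% of changes of 1 and 96% of changes of 2 on the log2 scale were recovered. There were 14 false calls. The simulated noise was normal, with 1 spread per gene in all groups, so these shares do not carry over to histone genes with few reads. CpG values were averaged within windows, and peaks counted by overlap with windows around starts. The members, lists, tests and alternatives were chosen with earlier results of these data known. Genes named were, by rule, the 3 most abundant members of each type, the 2 most abundant of Hist2, Hist3 and Hist4, any member at a mean of 5 RPKM, the leading genes of each list by level and by p, and always Slbp, Npat, H2afz, H3f3b and H1f0; not all of these are described. Hist1h2ab, Hist1h2ad, Hist1h2ai, Hist2h2ab, Hist1h4h, Hist1h4k and the other members named outside the rule were chosen after their values were seen. Alternatives were the pseudocount (0.1), the filter (none, or 5 RPKM), quantile and cyclic loess normalization, a replicate block, the 6 libraries compared alone, each library left out, and other windows and peak thresholds.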

Additional observations from a re-analysis of the deposited data

How the results depend on the processing

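Counts of histone genes that passed depended on the scaling, on the filter and on the libraries. With Bic/4AP against untreated, 36 passed as deposited, 20 with a filter of 5 RPKM, 20 after quantile and 22 after cyclic loess normalization. Rises went from 3 to 11 (quantile) and 8 (cyclic loess), and falls from 33 to 17 (filter), 9 and 14. With TTX against untreated, falls went from 4 to 0 (pseudocount 0.1), 1 (no filter), 2 (5 RPKM), 2 (quantile) and 2 (only the 6 libraries compared). With Bic/4AP against TTX, 46 became 27 (5 RPKM), 30 and 30 under the normalizations. Rises went from 2 to 1 (no filter), 1 (5 RPKM), 5 and 5, and falls from 44 to 26, 25 and 25. With a filter of 5 RPKM 32 histone genes remain to be tested. Otherwise the cause was not tested. Leaving out each library in turn gave 32 to 39 calls, 3 to 4 rises and 29 to 36 falls with Bic/4AP against untreated, 16 to 27 calls, 12 to 25 rises and 0 to 5 falls with TTX against untreated, and 40 to 49 calls, 1 to 2 rises and 39 to 48 falls with Bic/4AP against TTX.

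Among genes named by the rule, directions of called changes turned under the 2 normalizations and under no other alternative, here as unshifted log2 changes. With Bic/4AP against untreated they were H2afj (0.14 quantile, 0.084 cyclic loess), Hist1h1c (0.22, 0.10), Hist1h2bl (0.23, 0.088), Hist1h4i (0.18, 0.034), Npat (0.15, 0.16) and Mcm6 (0.047, quantile). With TTX against untreated it was Nfyc (-0.0081, cyclic loess). With Bic/4AP against TTX they were Hist1h1e (0.061, 0.092), Nfyb (0.067, 0.077) and H2afj (0.060, cyclic loess). Over all genes called, 5 of 36 histone genes turned under at least 1 normalization with Bic/4AP against untreated, 0 of 24 with TTX against untreated and 2 of 46 with Bic/4AP against TTX, and so did 22 of 111, 5 of 105 and 18 of 108 genes of the other lists.

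A fit with replicate number as a block gave 3 rises and 36 falls with Bic/4AP against untreated, 20 and 4 with TTX against untreated, and 2 and 46 with Bic/4AP against TTX. Deviations of same-numbered libraries correlated from -0.173 to 0.0435, and those of differently numbered libraries from -0.129 to 0.208. No pairing by number was seen, though noise within libraries could hide one.

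The H3K27ac peaks at starts in the shorter untreated list went from 8 to 5 when only peaks at or above the median score were kept. Median methylation at histone starts was 0.00841, 0.00777 and 0.00826 (untreated, TTX and Bic/4AP) in windows of 500 bases and 0.0607, 0.0704 and 0.0668 in windows of 2000 bases either side. The depth of the Bic/4AP libraries limits the values of single genes there.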
